A study of Mus musculus with 3 samples.

Results

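The mRNAs of the mouse mitochondrial genome were examined in 3 libraries made by RNA interactome analysis and sequencing (RIA-seq), which recovers the RNAs held together with a chosen RNA in fixed cells. All libraries came from undifferentiated E14 ES cells, a feeder-free 129/Ola embryonic stem cell line, fixed with glutaraldehyde and sonicated before hybridization. They differed in the antisense oligonucleotides used for the pull-down, directed against Actb, Malat1 or Tfrc, and are called after their target, with Actb as the control of the study. Each condition had 1 library, and an input library or a pull-down without oligonucleotides was not analysed here. No spread between replicates could be measured, and an effect of the target cannot be told apart from a difference between library preparations. Every interval below covers counting error at the 95% level only, with each count taken as independent. Members were all rows whose gene symbol begins with mt- or whose chromosome is the mitochondrial one. They were 13 genes of 26887 listed in any library, and each of the 13 was counted in all 3 libraries. The annotation of the build holds 37 mitochondrial genes, of which 2 are rRNAs, 22 are tRNAs and 13 are mRNAs. The 13 listed genes were the complete set of mRNAs, and no row was listed for a mitochondrial rRNA or tRNA, so shares of these classes were not measured. The tables also held no row of the annotated nuclear rRNA type (0 of 332 genes) or snRNA type (0 of 1423 genes).

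The mitochondrial genome is a small circular DNA that is transcribed from both strands into long precursors. The tRNAs lie between the mRNAs and rRNAs, and their excision releases the mature RNAs. All mitochondrial mRNAs encode membrane subunits of the respiratory chain or of ATP synthase and are translated inside the organelle; the RNAs targeted by the oligonucleotides are nuclear-encoded. The 13 mRNAs comprised 7 subunits of complex I (NADH dehydrogenase), 1 of complex III (mt-Cytb, cytochrome b), 3 of complex IV (cytochrome c oxidase) and 2 of complex V (ATP synthase). In the NCBIM37 build, 12 of them lie on the plus strand of the mitochondrial DNA and 1, mt-Nd6, on the minus strand. They have no introns, and all of their counts were listed under Ensembl identifiers, with none under the reference name Genome that the tables also use.

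Some reading frames overlap, so reads at the junction can belong to either gene. The junctions are shown to place the neighbouring genes whose ratios are compared below, with the bases shared by both frames in capitals. The frame of mt-Atp8 overlaps that of mt-Atp6 by 43 bases, and mt-Nd4l overlaps mt-Nd4 by 7 bases; each pair lies in the same order on a single mature mRNA. The end of mt-Nd5 overlaps the end of mt-Nd6, on the other strand, by 14 bases. All are given 5′ to 3′ on the plus strand.
mt-Atp8 and mt-Atp6, chrM:7907-7989: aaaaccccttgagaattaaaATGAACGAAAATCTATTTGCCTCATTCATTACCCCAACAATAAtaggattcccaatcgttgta
mt-Nd4l and mt-Nd4, chrM:10137-10203: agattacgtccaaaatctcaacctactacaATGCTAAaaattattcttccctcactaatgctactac
mt-Nd5 and mt-Nd6, chrM:13522-13595: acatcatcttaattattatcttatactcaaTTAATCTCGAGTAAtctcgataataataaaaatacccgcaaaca

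The library totals were 10405209 counts in the Actb library, 10078439 in the Malat1 library and 14553941 in the Tfrc library, which set the smallest visible level (3 counts) at 0.206 to 0.298 per 1000000 counts. Each target had its highest level in its own library. Actb had 73038 counts per 1000000 in its own library and 889 and 924 in the others. Malat1 had 10657 in its own library, 1834 in the Actb library and 7041 in the Tfrc library, and Tfrc had 117 in its own library, 43.5 in the Actb library and 101 in the Malat1 library, so that these targets were also above the control in each other's library (3.84-fold for Malat1 and 2.32-fold for Tfrc). The 8 ES cell markers were counted in every library, with a summed level of 2983 to 4193 per 1000000 counts. The 5 fibroblast markers together reached 18.9 to 21.8, with 0 or 1 of them at 0, and 7 markers of differentiated germ layers reached 30.7 to 36.3, with 0 to 2 at 0. Counts listed under Lars2 made up 32.0% of the Actb library, 17.0% of the Malat1 library and 22.2% of the Tfrc library, and Actb took a further 7.30% of its own library. A share of the library depends on what such genes take up, and over all genes that reached 10 counts in both of the compared libraries the median fold was 1.82 for the Malat1 library over the Actb library (0.86 on the log2 scale), 1.56 for the Tfrc library over the Actb library (0.64) and 1.15 for the Malat1 library over the Tfrc library. A fold above 1 was found for 88.7%, 87.2% and 67.9% of the genes in these comparisons. Folds below are ratios of shares of the library total and are to be read against those medians.

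The 13 mRNAs together held 484720 counts in the Actb library, 4.66% of the library (Wilson interval 4.65 to 4.67). They held 475533 counts in the Malat1 library, 4.72% (4.71 to 4.73), and 1136302 counts in the Tfrc library, 7.81% (7.79 to 7.82). The summed share was thus nearly equal in the Actb and Malat1 libraries and highest in the Tfrc library. The fold of the sum was 1.01 for the Malat1 over the Actb library (95% confidence interval 1.009 to 1.017), 1.68 for the Tfrc over the Actb library (1.67 to 1.68) and 0.604 for the Malat1 over the Tfrc library (0.602 to 0.606). The order of the Actb and Malat1 libraries depended on the scaling: with the libraries scaled by the median ratio over genes, the folds over the Actb library were 0.538 for Malat1 and 1.01 for Tfrc, so that the mitochondrial sum lay below the control in the Malat1 library and close to it in the Tfrc library. With Lars2 and Actb taken out of the totals, a choice made after the data were seen, the shares were 7.68% in the Actb library, 5.69% in the Malat1 library and 10.0% in the Tfrc library.

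The mitochondrial mRNAs were among the most counted genes, with 9 of them in the Actb library, 11 in the Malat1 library and 10 in the Tfrc library within the 25 genes of highest count. Levels of different genes were compared per kb of gene length. In the Actb library mt-Co1, the catalytic subunit of cytochrome c oxidase, was the highest with 10496 counts per 1000000 per kb, followed by mt-Co2 (7195), which carries the copper centre that accepts electrons from cytochrome c. In the Tfrc library these genes also led, in the other order, with 15263 for mt-Co2 and 13203 for mt-Co1. In the Malat1 library the highest was mt-Nd6 with 8902, ahead of mt-Co2 (7315), mt-Co1 (6989) and mt-Nd4l (6449). With the counts of nuclear copies added to their mitochondrial genes, as described with those copies, this order changed, and mt-Nd4l came first in the Malat1 library with 12890, ahead of mt-Nd6 (8904). That sum may count the same reads again, as the treatment of reads with several matches is not given. Only annotated copies were added, each to the member it overlaps most. Thus mt-Co3, mt-Nd3, mt-Nd4 and mt-Atp8 gained none, although nuclear copies cover all or part of each. The lowest in every library was mt-Nd3, a small complex I subunit, with 418, 372 and 671 counts per 1000000 per kb in the Actb, Malat1 and Tfrc libraries. Next above it in all 3 libraries came mt-Nd2, with 1669, 2405 and 3942, except that with the copies added it stood higher in the Malat1 library. There it had 2485, above mt-Co3 (2453) and mt-Atp8 (2444), to which no copy counts were added.

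**Figure D1:**
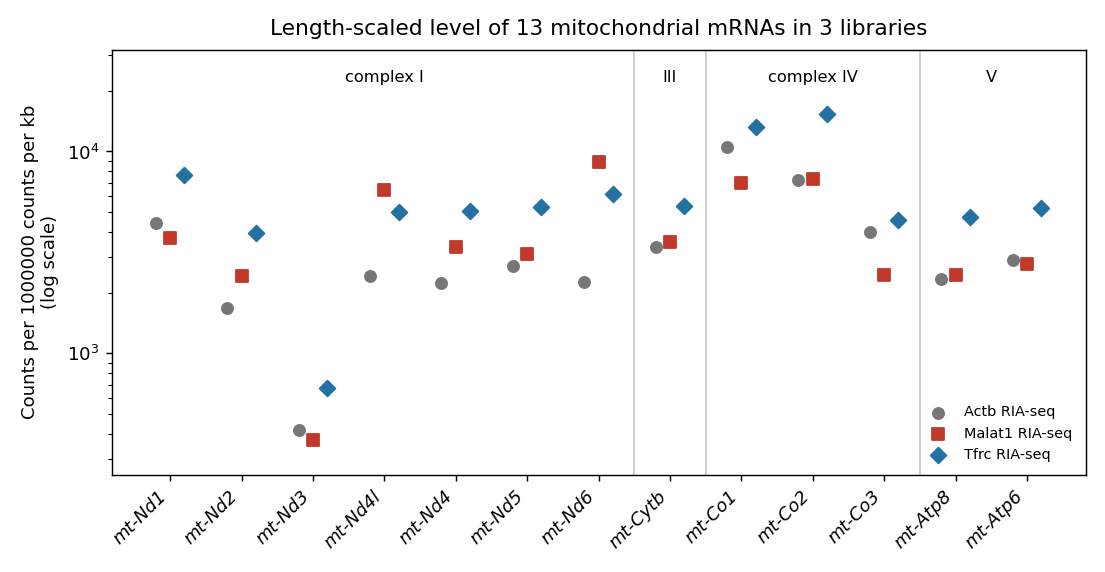
Each point is the level of a mitochondrial mRNA in a library, as counts per 1000000 counts per kb of gene on a log axis, with genes grouped by respiratory complex; each library is a single sample, so there are no replicate error bars. The the Tfrc library points are the highest for 11 of 13 genes, and mt-Nd4l and mt-Nd6 are highest in the Malat1 library.

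The widest spread between libraries, as the highest level over the lowest, was that of mt-Nd6, followed by mt-Nd4l, mt-Nd2 and mt-Nd4, all of complex I. The other complex I subunits, mt-Nd1, mt-Nd3 and mt-Nd5, spread less than mt-Co2 of complex IV. The gene mt-Nd6 (ENSMUSG00000064368, chrM:13552-14070, minus strand), the only mRNA of the minus strand, had 1175 counts per 1000000 in the Actb library (Wilson interval 1155 to 1196), 4620 in the Malat1 library (4579 to 4662) and 3183 in the Tfrc library (3154 to 3212). It was lowest in the Actb library and highest in the Malat1 library. Its fold over the Actb library was 3.93 in the Malat1 library (3.85 to 4.01), higher than that of 94.7% of 14572 genes, and 2.71 in the Tfrc library (2.65 to 2.76), higher than that of 88.5% of 14691 genes. The fold stayed above 1 under each of 12 settings of scaling or counting, the one used here included, from 2.09 to 4.60 in the Malat1 library and from 1.63 to 3.02 in the Tfrc library. The setting that leaves out other members for their nuclear copies cannot change this fold. Whether the libraries and the counting kept strand is not given in the sources used here, so mt-Nd6 RNA and RNA of the opposite strand over the same bases cannot be told apart.

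The gene mt-Nd4l (ENSMUSG00000065947, chrM:9877-10173) encodes a small complex I subunit from the mRNA it shares with mt-Nd4. It had 719 counts per 1000000 in the Actb library (703 to 735), 1915 in the Malat1 library (1888 to 1942) and 1489 in the Tfrc library (1469 to 1509). Its order of libraries was that of mt-Nd6, with the Malat1 library highest. Its fold over the Actb library was 2.66 in the Malat1 library (2.59 to 2.74) and 2.07 in the Tfrc library (2.02 to 2.13), and over 11 such settings it ranged from 1.42 to 3.12 and from 1.24 to 2.31. Both genes differed from the other 11 mRNAs in the direct comparison of the pull-downs: over the Tfrc library, the fold in the Malat1 library was 1.45 for mt-Nd6, higher than that of 80.4% of 16430 genes, and 1.29 for mt-Nd4l, higher than that of 65.6%, while that of the other 11 ranged from 0.479 for mt-Co2 to 0.665 for mt-Cytb.

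The partner frame on the same mRNA, mt-Nd4 (ENSMUSG00000064363, chrM:10167-11544), had 3067 counts per 1000000 in the Actb library, 4622 in the Malat1 library and 6962 in the Tfrc library, so that here the Tfrc library was highest. Its folds over the Actb library were 1.51 and 2.27, and the first turned to 0.801 by the median ratio. The per-kb ratio of mt-Nd4l to mt-Nd4 was 1.09 in the Actb library (1.06 to 1.11) and 0.992 in the Tfrc library (0.978 to 1.01), and 1.92 in the Malat1 library (1.89 to 1.96). A ratio of genes within a library does not depend on how the libraries are scaled. It can depend on how reads shared with nuclear copies were placed. At 99% identity, such copies cover 100% of mt-Nd4l and 65.8% of mt-Nd4. With the counts of annotated copies added, mt-Nd4l had 4875, 12890 and 10055 counts per 1000000 per kb in the Actb, Malat1 and Tfrc libraries. The levels of mt-Nd4, which gained none, were 2226, 3354 and 5053, so the ratios near 1 did not hold there. The corresponding ratio of mt-Atp8 to mt-Atp6, the other pair of frames on a shared mRNA, was 0.807 (0.783 to 0.833), 0.885 (0.858 to 0.913) and 0.899 (0.882 to 0.916) in the Actb, Malat1 and Tfrc libraries. The ratio of the first pair thus stood apart in the Malat1 library, whereas that of the second moved much less. For mt-Nd6 the per-kb ratio to its neighbour mt-Nd5 was 0.833 in the Actb library, 2.86 in the Malat1 library and 1.16 in the Tfrc library, and that to mt-Cytb, the neighbour on the other side, was 0.677, 2.50 and 1.15.

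The remaining complex I subunits were mt-Nd1, mt-Nd2, mt-Nd3 and mt-Nd5, of which mt-Nd1 sits where quinone is bound and mt-Nd2 and mt-Nd5, like mt-Nd4, belong to the proton-pumping membrane arm. The level of mt-Nd2 was 1733 counts per 1000000 in the Actb library, 2496 in the Malat1 library and 4091 in the Tfrc library, with folds over the Actb library of 1.44 and 2.36. For mt-Nd5 the levels were 4962, 5673 and 9687 in the same order of libraries, with folds of 1.14 and 1.95. For mt-Nd1 they were 4243, 3558 and 7350, with folds of 0.838 and 1.73. The fold of mt-Nd1 in the Malat1 library stayed below 1 under each of 12 such settings, from 0.446 to 0.981. As for mt-Nd6, the setting that leaves out other members cannot change it. The least counted mRNA, mt-Nd3, had 146 counts per 1000000 in the Actb library (138 to 153), 129 in the Malat1 library (122 to 136) and 233 in the Tfrc library (226 to 241). Among these genes the Tfrc library was always highest, and the Malat1 library lay above the Actb library for mt-Nd2 and mt-Nd5 and below it for mt-Nd1 and mt-Nd3, whereas by the median ratio the folds of mt-Nd2 and mt-Nd5 were 0.766 and 0.608.

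The lowest folds were those of the complex IV mRNAs mt-Co1 and mt-Co3. The level of mt-Co1 (ENSMUSG00000064351, chrM:5328-6872) was 16216 counts per 1000000 in the Actb library (16139 to 16293), 10797 in the Malat1 library (10734 to 10861) and 20399 in the Tfrc library (20327 to 20472). For mt-Co3 (ENSMUSG00000064358, chrM:8607-9390), which stabilises the catalytic core, it was 3129 (3095 to 3163), 1923 (1896 to 1950) and 3587 (3557 to 3618). Both were lowest in the Malat1 library. The fold in the Malat1 library over the Actb library was 0.666 for mt-Co1 (0.661 to 0.671) and 0.615 for mt-Co3 (0.604 to 0.626). Only 2.79% and 2.10% of the 14572 genes had lower folds than these. The folds stayed below 1 under each of 11 such settings, with the highest at 0.779 for mt-Co1 and 0.719 for mt-Co3. In the Tfrc library the folds were 1.26 and 1.15, the lowest of the 13 mRNAs there too, and with the median-ratio scaling they turned to 0.756 and 0.689. The third subunit, mt-Co2 (ENSMUSG00000064354, chrM:7013-7696), differed from both, with 4921 counts per 1000000 in the Actb library, 5004 in the Malat1 library and 10440 in the Tfrc library and folds of 1.02 (1.004 to 1.03) and 2.12 (2.10 to 2.14).

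By the summed fold over the Actb library, complexes III and V lay between complexes I and IV. In the Malat1 library the sums had folds of 1.43 for I, 1.06 for III, 0.973 for V and 0.730 for IV. In the Tfrc library they were 2.06 for I, 1.60 for III, 1.86 for V and 1.42 for IV. The folds of single mRNAs overlapped between complexes. The level of mt-Cytb (ENSMUSG00000064370, chrM:14145-15288) was 3829 counts per 1000000 in the Actb library, 4067 in the Malat1 library and 6116 in the Tfrc library. The level of mt-Atp6, part of the proton channel of ATP synthase, was 1968, 1880 and 3575, and that of mt-Atp8, a short subunit of its membrane part, was 476, 499 and 962. In the Malat1 library the folds of these genes were 1.06, 0.955 and 1.05, in the order mt-Cytb, mt-Atp6 and mt-Atp8, and by the median ratio 0.564, 0.508 and 0.557, so that the direction of mt-Cytb and mt-Atp8 turned with the scaling. In the Tfrc library they were 1.60, 1.82 and 2.02, and by the median ratio 0.960, 1.09 and 1.22.

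Counted over the members, 2 of 13 mRNAs (mt-Nd4l and mt-Nd6) had a fold of at least 2 in the Malat1 library over the Actb library, and the background share of genes at or above that fold was 42.1% of 14572. None had a fold of 0.5 or less (background 0.954%). The median fold of the 13 was 1.05, against 1.82 over all genes, and 11 of 13 lay below the median gene. In the Tfrc library over the Actb library 6 of 13 had a fold of at least 2 (mt-Atp8, mt-Co2, mt-Nd2, mt-Nd4, mt-Nd4l and mt-Nd6), against 28.6% of 14691 genes, and none was at 0.5 or less (0.388%). The median fold of the 13 was 1.95, against 1.56 over all genes, and 11 of 13 lay above the median gene. These comparisons share the Actb library as the control. In either direction the counts were 2 of 13 (background 43.0%) and 6 of 13 (background 28.9%). By the median-ratio scaling 1 mRNA, mt-Nd6, was at 2 or more in the Malat1 library and 4 were at 0.5 or less, and none was past either limit in the Tfrc library. In the Malat1 library over the Tfrc library, 11 of 13 lay below 1, where 67.9% of all genes lay above it. The median fold of the 13 was 0.554 against 1.15 over all genes. Of the 13, 2 (mt-Co2 and mt-Nd1) were at 0.5 or less, with a background of 1.92% of 16430 genes. None was at 2 or more (background 4.35%, and 6.27% in either direction). By the median ratio 7 of 13 were at 0.5 or less in this comparison and none at 2 or more, with a summed fold of 0.534. The background share was not computed at that scaling.

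**Figure D2:**
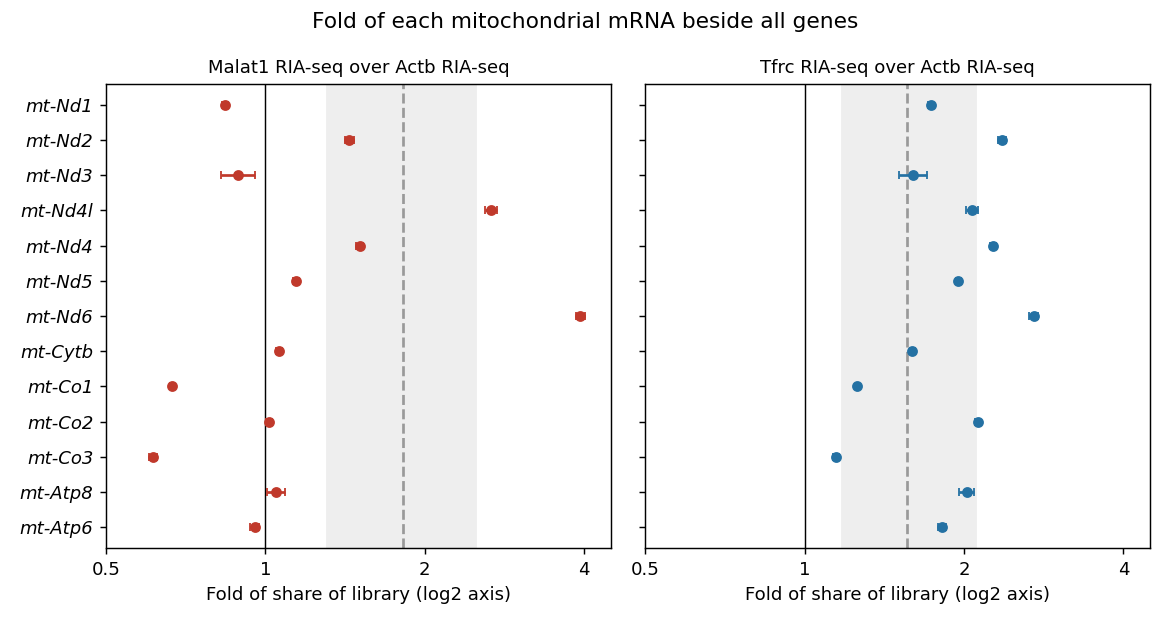
Points are the folds of the share of the library over the Actb library for each mitochondrial mRNA on a log2 axis, with 95% counting intervals; the solid line is a fold of 1, the dashed line the median of all genes that reached 10 counts in both and the grey band their interquartile range (1.31 to 2.50 for the Malat1 library, 1.18 to 2.10 for the Tfrc library). In the Malat1 library 11 of 13 points lie left of the dashed line, and in the Tfrc library 2 of 13 do.

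The composition of the mitochondrial counts themselves was compared next, as it does not depend on the library total and so on the counts of Lars2 or Actb. Complex I mRNAs made up 34.4% of the mitochondrial counts in the Actb library (Wilson interval 34.3 to 34.6), 48.8% in the Malat1 library (48.6 to 48.9) and 42.3% in the Tfrc library (42.2 to 42.4). Complex IV mRNAs made up 52.1% (51.95 to 52.23), 37.6% (37.4 to 37.7) and 44.1% (44.0 to 44.2). The share of mt-Cytb was 8.22%, 8.62% and 7.83%, and that of complex V was 5.25%, 5.04% and 5.81%. Complex I thus held the largest share in the Malat1 library, and complex IV in the other libraries. Together mt-Nd4l and mt-Nd6 held 4.07%, 13.9% and 5.98% of mitochondrial counts in the Actb, Malat1 and Tfrc libraries. Without them, complex IV would hold more than complex I in the Malat1 library too. Within complex I, mt-Nd6 made up 2.52% of mitochondrial counts in the Actb library, 9.79% in the Malat1 library and 4.08% in the Tfrc library, and mt-Nd4l 1.54%, 4.06% and 1.91%. The share of mt-Co1 was 34.8%, 22.9% and 26.1%.

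**Figure D3:**
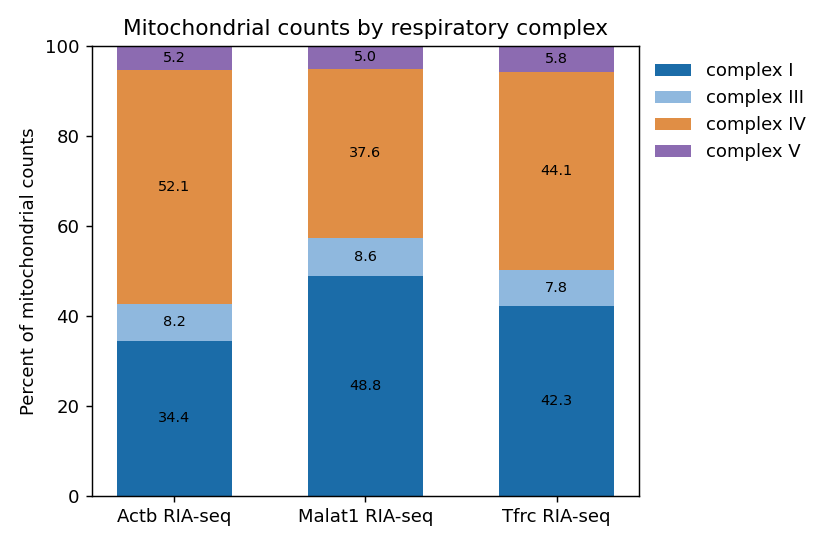
Each bar is the mitochondrial counts of a library, divided by the respiratory complex that the mRNAs encode, in percent (7 genes in complex I, 1 in III, 3 in IV and 2 in V). Complex I takes 34.4%, 48.8% and 42.3% and complex IV 52.1%, 37.6% and 44.1% in the Actb, Malat1 and Tfrc libraries.

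Along the mitochondrial genome, genes with high and low ratios lay side by side. As a ratio of shares of the mitochondrial counts over the Actb library, 6 of 13 mRNAs had an interval above 1 in the Malat1 library, 5 below 1 and 2 covering 1. In the Tfrc library 9 were above, 3 below and 1 covered 1. The ratio of mt-Co3 was 0.607 in the Malat1 library and that of mt-Nd4l, separated from it by mt-Nd3 (0.877) and tRNAs, was 2.63. The ratio of mt-Nd5 was 1.13, that of mt-Nd6 3.88 and that of mt-Cytb, at the end of the map, 1.05. In the Tfrc library the range was narrower, from 0.684 for mt-Co3 to 1.62 for mt-Nd6. The 13 genes span 204 to 1824 bases and 31.9 to 41.1% G and C, within which mt-Nd4l has 297 bases and the highest content (41.1%), and mt-Nd6 has 519 bases and 34.1%. The shortest gene, mt-Atp8, had a ratio of 1.03 in the Malat1 library.

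**Figure D4:**
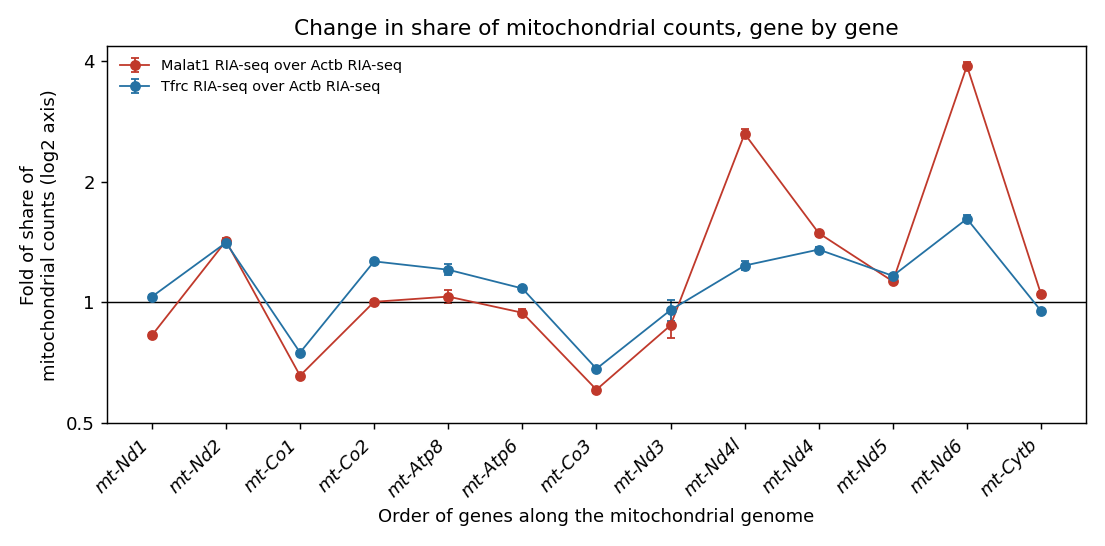
Points are the ratio of each mRNA's share of the mitochondrial counts to that in the Actb library on a log2 axis, in gene order along the mitochondrial genome from mt-Nd1 to mt-Cytb, with 95% counting intervals; lines join neighbouring genes for orientation. In the Malat1 library mt-Nd4l (2.63) and mt-Nd6 (3.88) stand above their neighbours, and mt-Co1 (0.657) and mt-Co3 (0.607) are the lowest.

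Pieces of mitochondrial DNA are also present in the nuclear chromosomes, and reads from them or from the mitochondrion can be placed on either copy. An alignment of the mitochondrial DNA to the NCBIM37 nuclear chromosomes found 47 stretches of at least 100 bases at 80% identity or more. The longest, on chr1:24618374-24623027, copies 4654 aligned bases at 99.94% identity with 2 mismatches and 1 gap, and spans mt-Co2, mt-Atp8, mt-Atp6, mt-Co3, mt-Nd3 and mt-Nd4l with parts of mt-Co1 and mt-Nd4. With identity taken over each whole aligned stretch, at 95% and 100 bases or more, 10 of 13 mRNAs overlapped a nuclear copy. The genes mt-Nd1, mt-Nd6 and mt-Cytb did not, and are called below the genes without a near-identical copy. Part of the chromosome 4 copy of mt-Nd6 is still above that limit, with 96.7% identity over 120 bases. The annotated nuclear gene Gm10222 (chr1:24619243-24619539, minus strand) matches mt-Nd4l in all 297 bases, so no read within it can tell them apart. That sequence is printed because the values of mt-Nd4l come from reads within it.
mt-Nd4l and Gm10222, chrM:9877-10173, plus strand: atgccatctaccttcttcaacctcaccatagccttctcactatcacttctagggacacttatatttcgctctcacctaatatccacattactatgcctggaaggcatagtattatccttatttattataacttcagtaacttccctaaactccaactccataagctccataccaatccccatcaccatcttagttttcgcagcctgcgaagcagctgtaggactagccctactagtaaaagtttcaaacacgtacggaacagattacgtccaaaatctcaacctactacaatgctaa

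The counts of both rows were nearly equal in each library. In the Actb library mt-Nd4l had 7481 counts and Gm10222 had 7585 Ensembl-ID counts, a ratio of 0.986 (0.955 to 1.02). In the Malat1 library they had 19303 and 19281, a ratio of 1.00 (0.981 to 1.02), and in the Tfrc library 21671 and 21793, a ratio of 0.994 (0.976 to 1.01). Gm10222 also had Genome counts, 8133 in the Actb library, 28078 in the Malat1 library and 24551 in the Tfrc library, whereas no mitochondrial gene had any. Gm10925 (chr1:24620814-24621627), which covers most of mt-Atp8 and mt-Atp6 in the same copy, had 17336, 15526 and 44537 Ensembl-ID counts. Its folds over the Actb library were 0.925 and 1.84, beside 0.955 and 1.82 for mt-Atp6. These nuclear genes were named after their counts were seen. With the Ensembl-ID counts of all annotated nuclear copies added to their mitochondrial genes, a choice made after the data were seen, the mitochondrial share was 5.07% in the Actb library, 5.23% in the Malat1 library and 8.55% in the Tfrc library. The same total of mt-Nd4l was then 2.86%, 7.33% and 3.49% of mitochondrial counts. As the Ensembl-ID counts of Gm10222 nearly equalled those of mt-Nd4l in each library, this sum could hardly change the contrast between libraries for mt-Nd4l. Each annotated copy was added whole to the member it overlaps most, so the counts of Gm10925 went to mt-Atp6 and none to mt-Atp8. Whether reads with several matches were counted at both places is not given, so these sums may count the same reads again. Levels per kb of genes with and without an identical copy are not strictly comparable.

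For mt-Nd6 the nuclear copy differs in sequence. It lies in a stretch of chromosome 4 with 93.03% identity over 2871 bases, annotated as Gm11408, which had 3 counts in the Actb library, 8 in the Malat1 library and 5 in the Tfrc library, against 12231, 46566 and 46326 for mt-Nd6. The first 120 bases of mt-Nd6 and of the copy are printed, both from the minus strand, to show how reads can be told apart, with the 4 bases that differ in capitals.
mt-Nd6, chrM:13951-14070: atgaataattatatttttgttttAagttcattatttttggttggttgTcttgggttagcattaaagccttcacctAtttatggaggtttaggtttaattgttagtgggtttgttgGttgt
Nuclear copy, chr4:79649699-79649818: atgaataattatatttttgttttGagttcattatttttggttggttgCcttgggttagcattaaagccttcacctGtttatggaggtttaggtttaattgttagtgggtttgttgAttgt

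Nuclear genes that serve mitochondrial gene expression were compared by role. Of 15 genes of mitochondrial DNA transcription and maintenance, 13 were listed, and each reached 10 counts in every comparison, with a median fold over the Actb library of 2.35 in the Malat1 library (8 of 13 at 2 or more, background 42.1%) and 1.57 in the Tfrc library (3 of 13, background 28.6%). The most counted, Ssbp1, the single-strand binding protein of mitochondrial DNA, had 141, 195 and 162 counts per 1000000 in the Actb, Malat1 and Tfrc libraries. Tfb2m, a transcription initiation factor, had 28.4, 69.6 and 42.9, and Polg2, the accessory subunit of the mitochondrial DNA polymerase, had 18.4, 65.7 and 41.2. Of 32 genes of mitochondrial RNA processing and stability 31 were listed, with median folds of 1.57 and 1.49 and with 5 and 2 of 31 at 2 or more. Lrpprc, which stabilises mitochondrial mRNAs, had 148, 332 and 240 counts per 1000000, Nsun2, an RNA methyltransferase, 139, 229 and 145, and Ptcd3, a protein of the mitochondrial ribosome, 75.9, 153 and 119. All 3 were highest in the Malat1 library, as were the 3 genes of the first list, in a library where most genes had folds above 1 over both others.

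The partners of the mitochondrial mRNAs that are made in the cytosol gave other values. Of 80 genes with symbols of mitoribosomal proteins, 4 of them pseudogenes, 78 reached 10 counts in both libraries of each comparison, with median folds of 1.41 in the Malat1 library (10 of 78 at 2 or more) and 1.17 in the Tfrc library (1 of 78). Without the pseudogenes, a choice made after the data were seen, the medians over 76 genes were 1.41 and 1.17, with 9 and 1 at 2 or more. The most counted were Mrps26 with 110, 440 and 158 counts per 1000000 in the Actb, Malat1 and Tfrc libraries, Mrpl39 with 72.0, 117 and 84.9, and Mrpl13 with 47.3, 91.7 and 87.1. Of 83 nuclear-encoded genes with symbols of respiratory chain and ATP synthase subunits, 80 were compared, with median folds of 1.11 (4 of 80 at 2 or more) and 1.09 (2 of 80). Atp5b, the catalytic subunit of ATP synthase, had 755, 665 and 795 counts per 1000000, Cox7c 318, 339 and 355, and Atp5a1 340, 295 and 329. Thus the median fold of the mitochondrially encoded mRNAs lay near that of the nuclear-encoded subunits in the Malat1 library, at 1.05 and 1.11, and above it in the Tfrc library, at 1.95 and 1.09. The background shares at 2 or more were 42.1% and 28.6%, and with 1 library per condition no difference between lists was tested.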

How the data were processed

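Each of 3 RIA-seq libraries has 1 table, in which the authors deposited reads per gene as unnormalized whole-number counts, with genes without a read left out. The submitters' processing notes name Bowtie 0.12.7 and the builds mm9 and NCBIM37, and the counter, the treatment of reads with several matches and the use of strand are not given in the sources used here. The Ensembl-ID and Genome counts of each gene symbol and chromosome were summed and divided by the library total. Folds are ratios of these shares with a pseudocount of 0 and an interval from the counts on the log scale, and shares have Wilson intervals. No correction for PCR copies by molecular identifiers was made here, so copies of a molecule may be counted as separate reads. The intervals take each count as independent and may be too narrow even for counting error. With 1 library per condition no count model was fitted and no p-value is given. A gene was counted as past the limit at a fold of 2 or 0.5, with at least 10 counts in both libraries. Positions came from GENCODE on NCBIM37, and sequences from that genome. Nuclear copies were found with blastn (BLAST+ 2.17.0, identity of at least 80%). TMM factors came from edgeR 4.0.16, and all else from Python 3.11.15, numpy 2.4.6, pandas 2.3.3 and scipy 1.17.1. The fold and its interval were run on simulated Poisson counts, which hold counting error only. That run checks the calculation, not the spread between library preparations. Alternatives were other scalings and totals, Ensembl-ID counts alone, other minimums, a pseudocount of 1, members without a near-identical copy and, after the data were seen, totals without Lars2 and Actb and the addition of nuclear copies. The genes named were all members, the targets and the 3 most counted genes of each list. Members and lists were chosen with earlier results of these data known.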

Additional observations from a re-analysis of the deposited data

How the results depend on the processing

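With 1 library per condition, the values depended on the scaling of libraries, and the cause was not tested. The summed fold of the 13 mRNAs in the Malat1 library over the Actb library, 1.01, was 0.538 by the median ratio, 0.550 by TMM and 0.558 by the 75th percentile. It was 0.948 without the 3 targets in the total, 0.633 without the 10 most counted genes, 1.19 from Ensembl-ID counts and 1.32 over the 3 genes without a near-identical copy. After the data were seen, 0.741 was obtained without Lars2 and Actb and 1.03 with nuclear copies added. For the Tfrc library, 1.68, the same settings gave 1.01, 1.04, 1.04, 1.56, 1.19, 1.87, 1.80, 1.31 and 1.69, and a total of nuclear genes only gave 1.73. The number of mRNAs past 2-fold in either direction, 2 of 13 in the Malat1 library, was 5 by the median ratio, by TMM and by the 75th percentile, with 1 higher and 4 lower each time, and 1 of 3 without near-identical copies. Without the 10 most counted genes, or without Lars2 and Actb, it was 3, with mt-Nd6 higher, mt-Co1 (0.416 and 0.487) and mt-Co3 (0.384 and 0.449) lower, and mt-Nd4l at 1.67 and 1.95 no longer past 2-fold. For the Tfrc library, 6 of 13, it was 0 by those 3 scalings and without the 10 most counted genes. It was 3 without the targets, 1 without Lars2 and Actb, and 1 of 3 without near-identical copies. The number rose to 8 from Ensembl-ID counts and to 7 with a total of nuclear genes only. A pseudocount of 1 moved the sums by less than the counting interval, and the numbers past 2-fold stayed at 2 and 6. They also stayed so with minimums of above 0 or of 50 counts, while the background shares moved. With these minimums the background was 49.3% and 38.2% for the Malat1 library, and 39.1% and 21.0% for the Tfrc library. Under the other alternatives the background share was not computed. The direction over the Actb library was the same under every setting run for 5 of 13 mRNAs in the Malat1 library (mt-Nd4l and mt-Nd6 above 1, and mt-Co1, mt-Co3 and mt-Nd1 below 1). It was also the same for 9 of 13 in the Tfrc library, all above 1, the exceptions being mt-Co1, mt-Co3, mt-Cytb and mt-Nd3. As most settings move all 13 folds by a common factor, a stable direction mainly reflects a fold far from 1. Folds of rRNA and tRNA classes could not be computed, as no such row was listed. No paired analysis was possible because each condition has 1 library.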
